A study of Homo sapiens with 6 samples.

Results

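Kinesins are motor proteins that use ATP to move along microtubules or to take microtubule ends apart. The 43 gene rows examined here are those whose symbol begins with KIF followed by a digit or by C, out of 20030 gene rows in the deposited table. By their known roles, 15 of them act in mitosis, 17 carry cargo along microtubules, 10 belong to cilia or have other or less settled roles, and 1, KIF1BP, encodes a protein that binds a kinesin and is not a motor. The kinesin CENPE and the accessory subunit KIFAP3 carry other symbols and are therefore counted among the partner genes. The 2 markers named for the family, KIF11 and KIF23, were expressed in every library, at 21.3 to 36.8 FPKM for KIF11 and 14.2 to 24.2 FPKM for KIF23.

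The samples were T24 cells, an established human bladder carcinoma line, in 2 groups of 3 libraries. The sh-circRIMS1 group received a knockdown of the circular RNA circRIMS1, and the group called NC, which the labels do not spell out, was its reference. The study's title places circRIMS1 upstream of miR-433-3p and CCAR1 in bladder cancer progression, and its stated aim was to compare mRNA levels between these groups. The labels name no other treatment, time or clone for either group, and the data columns of the knockdown carry the prefix si where the sample titles have sh, so the kind of knockdown reagent is uncertain. They also do not say whether the libraries came from separate cultures, so p-values measure the spread between these libraries, which may be technical.

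Mitotic kinesins build and shape the spindle. Some slide microtubules apart to make it bipolar, some shorten microtubule ends so that chromosomes line up, some ride on chromosome arms, and some bundle the central spindle that places the cleavage furrow. Their messenger RNAs are known to peak in G2 and mitosis, under a group of factors (the DREAM complex, then B-MYB and FOXM1) that bind a promoter element called the cell cycle genes homology region, or CHR, often beside CCAAT boxes bound by NF-Y. Transport kinesins carry vesicles, organelles and RNA along microtubules, mostly outward, in cells at every stage of the cycle. The class as used here also holds the minus-end motors KIFC2 and KIFC3.

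All values are FPKM, sequenced fragments divided by transcript length and by library depth, so levels are per length and may be compared between genes. Changes are given as sh-circRIMS1 minus NC of log2(FPKM + 0.5), with the standard error (SE) and an adjusted p from limma over 10408 genes with a mean of at least 1 FPKM. A gene is said to have risen or fallen where the adjusted p was below 0.05. The FPKM of a library summed to between 268143 and 284682. Between 14743 and 14906 genes were above 0 in the sh-circRIMS1 libraries, against 14078 to 14199 in the NC libraries. Absolute depth is unknown, and steps among low values placed relative depth within 1.01 and 1.17 times that of NC replicate 1. Between 31.6% and 46.9% of the low genes used lay within 2% of the ratio given for their library, so these ratios are rough. One library stood apart. Across genes, sh-circRIMS1 replicate 2 correlated with replicates 1 and 3 of its group at 0.974 to 0.975, whereas every other pair within a group reached 0.997. Counts of calls over the kinesin classes and partner lists are therefore given with and without it. The circular RNA itself was not analysed here. Of the urothelial and epithelial markers, KRT7, KRT8 and KRT18 were high, while UPK1B and UPK3A were listed at 0 in every library and KRT19, CDH1 and GATA3 were near 0. Among markers of other cells, CD3E was listed at 0 and PTPRC was near 0, but CD68 averaged 18.2 ± 4.13 FPKM in sh-circRIMS1 libraries and 4.57 ± 0.426 FPKM in NC libraries (SD, n = 3 each). The endothelial marker CDH5 averaged 13.7 ± 2.00 FPKM in sh-circRIMS1 libraries and 15.4 ± 0.735 FPKM in NC libraries (SD, n = 3 each). The leukocyte marker CD14 averaged 1.04 and 0.903 FPKM in these groups, and PECAM1, VWF, COL1A1, COL1A2 and DCN were below 1 FPKM in every library.

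The promoter sequences below mark CHR and CCAAT matches in some of the kinesins. Of the 43 rows, 35 matched a RefSeq promoter (build GRCh38.p14, 250 bases before to 50 bases from the annotated start). KIF13B, KIF19, KIF21B, KIF26B, KIF27, KIF5A, KIFC2 and KIFC3 did not. Each sequence runs 5′ to 3′ on the gene's own strand and covers 150 bases before to 20 bases from the start. Capitals mark TTTGAA, the core of the CHR, or its reverse complement TTCAAA, and CCAAT or its reverse complement ATTGG. These letters do not overlap one another. The first 6 sequences are kinesins of spindle assembly, chromosome alignment, chromosome arms and cytokinesis, all of which fell and hold both motifs. They do not stand for every kinesin that fell. KIF2C, KIF13A and KIF1C fell and hold neither motif, KIF15 fell and holds TTTGAA alone, and these are not printed. KIF11 (chr10:92592980-92593149, plus strand), KIFC1 (chr6:33391673-33391842, plus strand) and KIF4A (chrX:70289954-70290123, plus strand) come first. KIF18A (chr11:28108137-28108306, minus strand), KIF14 (chr1:200620732-200620901, minus strand) and KIF23 (chr15:69414199-69414368, plus strand) follow.
KIF11: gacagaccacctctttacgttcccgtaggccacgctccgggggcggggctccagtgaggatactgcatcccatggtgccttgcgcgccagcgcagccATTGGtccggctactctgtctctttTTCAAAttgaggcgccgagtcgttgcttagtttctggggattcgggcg
KIFC1: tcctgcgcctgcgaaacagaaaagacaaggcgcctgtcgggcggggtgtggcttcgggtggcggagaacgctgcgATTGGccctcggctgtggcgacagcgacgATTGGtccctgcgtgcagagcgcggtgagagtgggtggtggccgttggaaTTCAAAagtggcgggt
KIF4A: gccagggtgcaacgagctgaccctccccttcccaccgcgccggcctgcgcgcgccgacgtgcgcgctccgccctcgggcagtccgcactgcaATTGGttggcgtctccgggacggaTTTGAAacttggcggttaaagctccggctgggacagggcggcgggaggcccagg
KIF18A: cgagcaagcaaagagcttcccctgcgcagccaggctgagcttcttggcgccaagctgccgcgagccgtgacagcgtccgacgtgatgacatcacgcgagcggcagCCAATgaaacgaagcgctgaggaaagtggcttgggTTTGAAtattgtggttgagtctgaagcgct
KIF14: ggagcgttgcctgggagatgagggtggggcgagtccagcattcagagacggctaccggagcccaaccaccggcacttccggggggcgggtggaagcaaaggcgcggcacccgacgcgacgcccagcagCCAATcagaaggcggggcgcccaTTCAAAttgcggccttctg
KIF23: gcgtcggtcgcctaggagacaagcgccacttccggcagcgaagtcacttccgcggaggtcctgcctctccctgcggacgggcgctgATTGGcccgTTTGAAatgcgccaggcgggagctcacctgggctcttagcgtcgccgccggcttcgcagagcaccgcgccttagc

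For contrast, the next 2 belong to mitotic kinesins without a CHR match. KIF20A (chr5:138178962-138179131, plus strand) holds CCAAT alone, and KIF2A (chr5:62306056-62306225, plus strand) holds neither. The last 2 belong to transport kinesins. KIF5B (chr10:32056406-32056575, minus strand) fell and is the transport kinesin with a CHR match, and KIF3C (chr2:25982478-25982647, minus strand) rose and holds neither motif.
KIF20A: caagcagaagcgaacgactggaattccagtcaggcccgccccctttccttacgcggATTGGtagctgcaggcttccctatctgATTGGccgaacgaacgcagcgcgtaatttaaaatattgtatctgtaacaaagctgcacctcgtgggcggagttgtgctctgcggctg
KIF2A: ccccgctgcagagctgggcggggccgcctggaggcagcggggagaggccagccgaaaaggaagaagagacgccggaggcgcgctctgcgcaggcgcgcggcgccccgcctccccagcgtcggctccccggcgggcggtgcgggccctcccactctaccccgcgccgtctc
KIF5B: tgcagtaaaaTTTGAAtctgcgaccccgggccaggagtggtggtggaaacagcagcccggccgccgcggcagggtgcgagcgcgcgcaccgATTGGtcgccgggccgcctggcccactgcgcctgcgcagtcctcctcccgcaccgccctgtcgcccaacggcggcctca
KIF3C: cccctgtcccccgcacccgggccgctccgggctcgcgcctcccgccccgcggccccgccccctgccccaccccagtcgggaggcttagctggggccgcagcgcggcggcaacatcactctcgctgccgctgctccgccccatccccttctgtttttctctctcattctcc

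Mitotic kinesins were lower as a class after circRIMS1 knockdown, while transport kinesins moved in both directions. Of the 15 mitotic rows, 13 passed the filter on low values. Of these 13, 10 fell, 0 rose and 3 did not pass the test, and the median change was −0.58 with 12 of 13 below 0. Of the 17 transport rows, 13 passed the filter, of which 4 fell, 4 rose and 5 did not pass, with a median of −0.09. Across all tested genes, 12.7% fell (1322 genes) and 25.0% rose (2598 genes), and the median change was 0.06. In bulk RNA, fewer cells in mitosis and less of these mRNAs per cell cannot be told apart. Without sh-circRIMS1 replicate 2, 12 of 13 mitotic kinesins fell and the median was −0.48, while 4 transport kinesins fell and 5 rose with a median of −0.04. Over all 10340 genes then tested, 23.9% fell and 36.8% rose. Each NC library also bore on the transport calls: without NC replicate 1, 2 or 3, 2 transport kinesins fell each time and 1, 2 and 2 rose, and without sh-circRIMS1 replicate 1 or 3 also 2 fell. Calls over all tested genes dropped as well. Without NC replicates 1, 2 and 3, 685, 690 and 693 genes fell and 1635, 1650 and 1630 rose. Among mitotic kinesins, KIF15 and KIF2C lost their calls when any 1 NC library was left out, and 8 to 12 fell with 1 library left out.

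**Figure D1:**
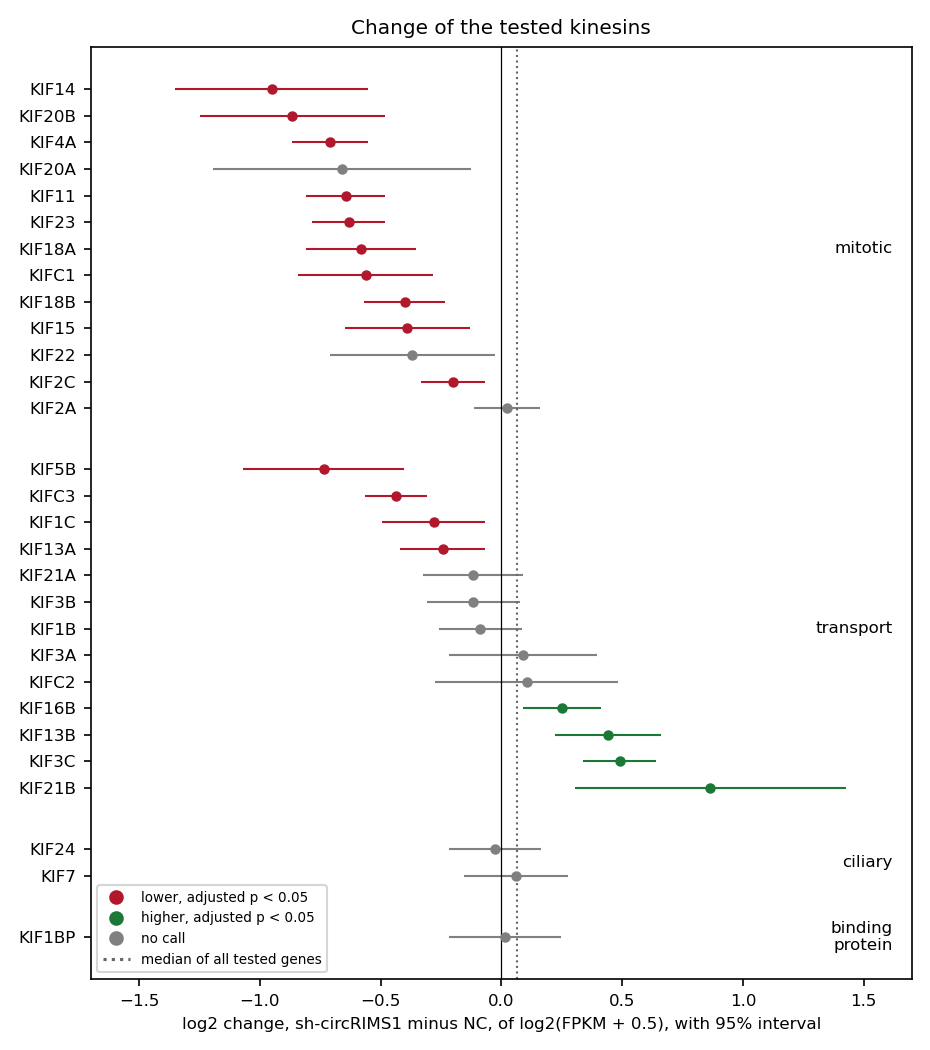
Change of each tested kinesin row (sh-circRIMS1 minus NC, log2(FPKM + 0.5), horizontal axis) with its 95% confidence interval, grouped by class and coloured by call. The 10 mitotic kinesins that fell lie left of 0 with KIF2A near 0, whereas transport kinesins spread over both sides, with KIF5B at −0.74 and KIF21B at 0.87.

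The shift was present in each knockdown library. Relative to the NC mean, the median over the 13 tested mitotic kinesins was −0.60, −0.66 and −0.40 in sh-circRIMS1 replicates 1, 2 and 3. The same median over the 13 tested transport kinesins was −0.12, −0.08 and 0.02, and over all tested genes it was 0.05, 0.08 and 0.08. The FPKM of the mitotic kinesins summed to 163, 148 and 173 in the sh-circRIMS1 libraries, against 235, 231 and 228 in the NC libraries. That is 161 ± 12.7 in sh-circRIMS1 and 232 ± 3.26 in NC (SD, n = 3 each), and the groups did not overlap. The transport kinesins summed to 116 ± 7.45 FPKM in sh-circRIMS1 libraries and 136 ± 1.58 FPKM in NC libraries (SD, n = 3 each), again without overlap. This sum is weighted to KIF5B, at 25.2 FPKM in sh-circRIMS1 and 41.7 FPKM in NC libraries, and KIF1C, at 26.4 and 32.0 FPKM. It does not describe the transport class as a whole, in which 4 of the 13 tested members fell and 4 rose. Mitotic members made up 58.0%, 52.9% and 58.6% of all kinesin FPKM in the sh-circRIMS1 libraries, against 61.8%, 61.7% and 61.7% in the NC libraries. The differences in summed FPKM and in the mitotic share each had an exact two-sided permutation p of 0.1, the smallest that 3 against 3 libraries can give.

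The kinesins that build a bipolar spindle all fell, 3 of 3 with a median of −0.56, where 12.7% of all tested genes fell. The same 3 fell without sh-circRIMS1 replicate 2, where 23.9% of all tested genes fell. KIF11, the plus-end motor that pushes spindle poles apart and the target of several experimental anticancer drugs, had 21.3, 22.0 and 24.5 FPKM in sh-circRIMS1 libraries, against 36.8, 35.4 and 34.4 FPKM in NC libraries. Every knockdown library lay well below every NC library, so that KIF11 stood at 63.6% of its NC mean (change −0.64, SE 0.07, limma adjusted p = 0.000847). KIFC1, a minus-end motor that draws poles together and clusters extra centrosomes in cancer cells, had 19.8, 15.0 and 20.4 FPKM in sh-circRIMS1 libraries, against 27.8, 26.9 and 26.8 FPKM in NC libraries. It fell by 0.56 (SE 0.12, limma adjusted p = 0.0107), with sh-circRIMS1 replicate 2 the lowest. KIF15, a plus-end motor that can stand in for KIF11, had 3.31, 4.52 and 4.03 FPKM in sh-circRIMS1 libraries, against 5.14, 5.17 and 5.60 FPKM in NC libraries. The groups did not overlap, but the fall of 0.39 (SE 0.11, limma adjusted p = 0.0304) was lost when any library other than sh-circRIMS1 replicate 2 was left out (adjusted p = 0.05 to 0.110), in a range of 0.000577 to 0.110 over 15 alternative settings.

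Of the 4 tested kinesins that align chromosomes or depolymerize microtubule ends, 3 fell, with a median of −0.30 for the 4. The share of all tested genes that fell was 12.7%. Without sh-circRIMS1 replicate 2 the same 3 fell, where 23.9% of all tested genes fell. KIF18A, which damps chromosome movements at the metaphase plate, had 3.51, 4.26 and 3.59 FPKM in sh-circRIMS1 libraries, against 5.41, 5.89 and 6.39 FPKM in NC libraries. It showed the largest fall among these 4 (change −0.58, SE 0.10, limma adjusted p = 0.00439). KIF18B, which shortens astral microtubules, had 6.84, 6.38 and 7.22 FPKM in sh-circRIMS1 libraries, against 9.47, 9.32 and 8.66 FPKM in NC libraries, and fell by 0.40 (SE 0.07, limma adjusted p = 0.00539). For both genes, all knockdown libraries lay below all NC libraries.

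KIF2C, the centromeric depolymerase also called MCAK, had 21.9, 20.8 and 22.7 FPKM in sh-circRIMS1 libraries, against 24.7, 25.8 and 24.9 FPKM in NC libraries. Its fall was the smallest of the 10 mitotic calls (change −0.20, SE 0.06, limma adjusted p = 0.0305), and was lost without any 1 of the NC libraries or sh-circRIMS1 replicate 1 (adjusted p = 0.0662 to 0.127), in a range of 0.00432 to 0.127 over 16 alternatives. KIF2A, a depolymerase of the same subfamily that acts at spindle poles and also in neurons outside mitosis, had 11.4, 12.1 and 12.4 FPKM in sh-circRIMS1 libraries, against 11.9, 11.7 and 11.6 FPKM in NC libraries. These groups overlapped, and the change of 0.02 had a 95% interval of −0.11 to 0.16 (limma adjusted p = 0.757). KIF2B, the remaining depolymerase, was listed at 0 in every library.

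Of the chromokinesins, which bind chromosome arms, KIF4A fell and KIF22 did not pass. KIF4A, which also sets the length of the central spindle, had 8.54, 7.87 and 9.07 FPKM in sh-circRIMS1 libraries, against 14.3, 14.1 and 14.1 FPKM in NC libraries. It had the smallest adjusted p of the KIF rows (change −0.71, SE 0.07, limma adjusted p = 0.000515). KIF22, also called KID, had 23.3, 16.0 and 22.9 FPKM in sh-circRIMS1 libraries, against 27.6, 26.8 and 25.3 FPKM in NC libraries. All knockdown libraries were below all NC libraries, yet the low value of replicate 2 widened the spread (change −0.37, 95% interval −0.71 to −0.03, limma adjusted p = 0.0845). Without that library KIF22 passed (change −0.20, limma adjusted p = 0.00394, with a range of 0.00394 to 0.213 over 16 alternatives). KIF4B is a near-identical copy of KIF4A, below the filter, and had 0.164, 0.128 and 0.206 FPKM in sh-circRIMS1 libraries, against 0.255, 0.265 and 0.235 FPKM in NC libraries. Its groups did not overlap (exact two-sided permutation p = 0.1), but the counting of reads that fit both copies is not stated, so the values of both genes are uncertain to that extent.

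The kinesins of cytokinesis had the lowest median of the mitotic groups, −0.76, with 3 of 4 passing the test as lower, where 12.7% of all tested genes fell. Without sh-circRIMS1 replicate 2 all 4 fell, where 23.9% of all tested genes fell. KIF14, which works with citron kinase at the midbody, had 3.93, 6.65 and 5.81 FPKM in sh-circRIMS1 libraries, against 11.1, 10.7 and 10.6 FPKM in NC libraries. It showed the largest fall among tested kinesins with a KIF symbol (change −0.95, SE 0.17, limma adjusted p = 0.00558). KIF20B, which acts in the final cut between daughter cells, had 4.97, 8.22 and 5.95 FPKM in sh-circRIMS1 libraries, against 12.1, 11.3 and 12.0 FPKM in NC libraries (change −0.86, SE 0.16, limma adjusted p = 0.00697). In both genes sh-circRIMS1 replicate 2 was the closest to NC, though still below every NC library.

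KIF23, the motor subunit of centralspindlin that bundles the central spindle, had 15.7, 14.2 and 16.0 FPKM in sh-circRIMS1 libraries, against 24.0, 23.5 and 24.2 FPKM in NC libraries. The groups were far apart relative to their spread (change −0.63, SE 0.06, limma adjusted p = 0.000686). KIF20A, which carries the chromosomal passenger complex and PLK1 to the central spindle, had 18.1, 9.95 and 18.6 FPKM in sh-circRIMS1 libraries, against 24.2, 24.3 and 23.5 FPKM in NC libraries. All knockdown libraries lay below all NC libraries, but replicate 2 lay far below the other 2 and the test was not passed (change −0.66, 95% interval −1.19 to −0.13, limma adjusted p = 0.0567). Without replicate 2 the change was smaller and passed (−0.38, limma adjusted p = 3.07e-05, with a range of 3.07e-05 to 0.144 over 16 alternatives).

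**Figure D2:**
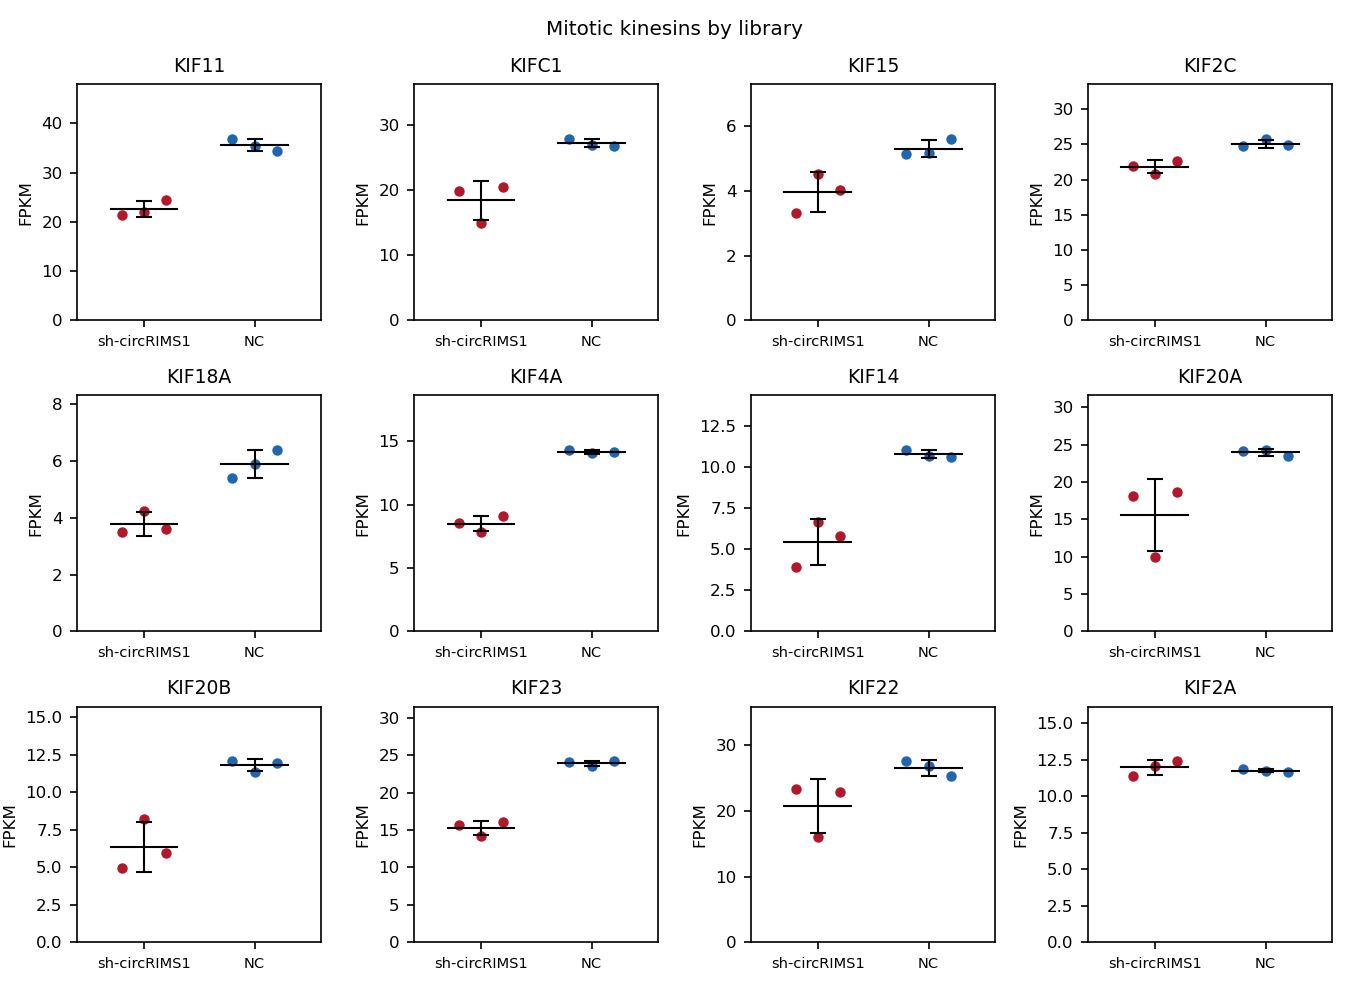
FPKM of 12 mitotic kinesins in each library (points), with group means and SD (lines and error bars), sh-circRIMS1 left of NC in each panel. KIF11, KIF23, KIF14 and others are separated without overlap, KIF20A has 1 low knockdown library at 9.95 FPKM, and KIF2A overlaps.

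Mitotic kinesins did not deviate together in sh-circRIMS1 replicate 2. Relative to the mean of replicates 1 and 3 it was higher for 5 and lower for 8 of the 13 tested members. KIF20A, KIF22 and KIFC1 were lower there by differences of −0.85, −0.52 and −0.41 on the log2 scale, whereas KIF20B and KIF14 were higher by 0.55 and 0.43. A deviation over 0.5 in size occurred in 3 of 13 mitotic kinesins (23.1%) and in 14.0% of all tested genes.

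Among transport kinesins, kinesin-1 gave the largest fall in level. KIF5B, the widely expressed heavy chain of conventional kinesin, which moves mitochondria, lysosomes and many vesicles, had 20.6, 31.1 and 23.8 FPKM in sh-circRIMS1 libraries, against 42.3, 40.8 and 41.9 FPKM in NC libraries. It fell by 0.74 (SE 0.14, limma adjusted p = 0.00755), and replicate 2 was the nearest to NC without reaching it. KIF5B had the highest mean of all KIF rows in NC libraries, 41.7 ± 0.770 FPKM, but stood below KIF1C in sh-circRIMS1 libraries, with 25.2 ± 5.40 FPKM for KIF5B and 26.4 ± 3.25 FPKM for KIF1C (SD, n = 3 each), a gap within their spread. KIF5C, the closely related heavy chain known mainly from neurons, had 0.862, 1.10 and 0.734 FPKM in sh-circRIMS1 libraries, against 0.0942, 0.130 and 0.0926 FPKM in NC libraries. It lay below the filter, and its groups were well separated at a low level (exact two-sided permutation p = 0.1). When every gene was tested without the filter, KIF5C changed by 1.20 (SE 0.10, limma adjusted p = 0.00127). KIF5A, the neuronal member, was near 0 in every library.

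Of 5 tested light chains and accessory subunits, 0 fell and 1 rose (2 without sh-circRIMS1 replicate 2), with a median of 0.02. The share of all tested genes that rose was 25.0% (36.8% without that library), and 12.7% fell (23.9% without it). KLC4, a kinesin-1 light chain, averaged 4.48 ± 0.522 FPKM in sh-circRIMS1 libraries and 3.10 ± 0.217 FPKM in NC libraries (SD, n = 3 each; change 0.46, limma adjusted p = 0.0106). Of 12 tested cargo adaptors and membrane links, 0 fell and 3 rose, with a median of 0.11, a number of rises at the share over all tested genes (25.0%). Without sh-circRIMS1 replicate 2, 1 fell and 5 rose, where 36.8% of all tested genes rose. SPAG9, also called JIP4, which links kinesin-1 and dynein to vesicles, had 20.6, 21.3 and 21.8 FPKM in sh-circRIMS1 libraries, against 13.9, 13.4 and 12.6 FPKM in NC libraries. Its rise of 0.66 (limma adjusted p = 0.00048) came without overlap. FEZ1, a kinesin-1 adaptor best known from neurons, averaged 8.88 ± 2.08 FPKM in sh-circRIMS1 libraries and 3.29 ± 0.123 FPKM in NC libraries (SD, n = 3 each; change 1.28, limma adjusted p = 0.00118).

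Of the kinesin-2 motors, which carry cargo in cilia and cytoplasm, 1 of 3 tested rose, where 25.0% of all tested genes rose. KIF3C, a partner of KIF3A found mostly in neurons, had 9.04, 8.88 and 9.64 FPKM in sh-circRIMS1 libraries, against 6.71, 6.26 and 6.23 FPKM in NC libraries. The groups did not overlap (change 0.49, SE 0.06, limma adjusted p = 0.00176). KIF3A (change 0.09, 95% interval −0.22 to 0.40) and KIF3B (change −0.12, 95% interval −0.31 to 0.08) did not pass, with limma adjusted p of 0.608 and 0.291. KIF17 was near 0 throughout, at 0.0753 ± 0.0816 FPKM in sh-circRIMS1 libraries and 0.0986 ± 0.0328 FPKM in NC libraries (SD, n = 3 each).

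The kinesin-3 motors, which move fast along axons and carry endosomes elsewhere, split evenly, with 2 lower, 2 higher and 1 not passing among 5 tested. The shares over all tested genes were 12.7% lower and 25.0% higher. KIF1C, a carrier of dense core vesicles and integrins, had 24.4, 30.1 and 24.6 FPKM in sh-circRIMS1 libraries, against 31.7, 32.7 and 31.4 FPKM in NC libraries. It fell by 0.28 (SE 0.09, limma adjusted p = 0.0473), close to the threshold, with replicate 2 near NC. The call was lost without any library other than that one (adjusted p = 0.118 to 0.145), in a range of 1.93e-05 to 0.145 over 16 alternatives. KIF13A, which moves recycling endosomes, had 3.25, 3.07 and 3.27 FPKM in sh-circRIMS1 libraries, against 3.89, 3.61 and 4.13 FPKM in NC libraries. It fell by 0.24 (SE 0.07, limma adjusted p = 0.0398), a call likewise lost without any library other than replicate 2 of the knockdown (adjusted p = 0.0662 to 0.149), in a range of 0.00928 to 0.149 over 15 alternatives.

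KIF13B, its closest relative and the carrier also called GAKIN, moved the other way, with 2.49, 2.44 and 2.16 FPKM in sh-circRIMS1 libraries, against 1.49, 1.76 and 1.58 FPKM in NC libraries. It rose by 0.44 (SE 0.09, limma adjusted p = 0.0107) without overlap. The call was lost without NC replicate 1 (adjusted p = 0.0509) and under quantile normalization (change 0.12, adjusted p = 0.351, in a range of 0.00262 to 0.351 over 15 alternatives). KIF16B, which moves early endosomes, had 2.96, 2.78 and 2.97 FPKM in sh-circRIMS1 libraries, against 2.37, 2.35 and 2.36 FPKM in NC libraries. The rise of 0.25 (SE 0.07, limma adjusted p = 0.0272) turned to −0.01 under quantile normalization (adjusted p = 0.916), and was lost without any library other than sh-circRIMS1 replicate 2 (adjusted p = 0.0679 to 0.102). Adjusted p ranged from 0.00255 to 0.916 over 15 alternatives. KIF1B, a carrier of synaptic vesicle precursors and mitochondria, did not pass (change −0.09, 95% interval −0.26 to 0.08, limma adjusted p = 0.369), and KIF1A was near 0.

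KIF21B, a kinesin-4 member that slows microtubule growth, had 2.02, 4.24 and 2.20 FPKM in sh-circRIMS1 libraries, against 1.13, 1.31 and 1.31 FPKM in NC libraries. It rose by 0.87 (SE 0.24, limma adjusted p = 0.0280), the largest rise among tested kinesins with a KIF symbol, with replicate 2 the highest library. Without replicate 2 the change was 0.58 (limma adjusted p = 0.000427), and without any 1 of the NC libraries the call was lost (adjusted p = 0.0780 to 0.0960). Adjusted p ranged from 0.000247 to 0.104 over 15 alternatives. KIF21A, its counterpart, did not pass (change −0.12, 95% interval −0.32 to 0.09, limma adjusted p = 0.315). KIFC3, a minus-end motor at the Golgi and cell junctions, had 9.09, 8.94 and 8.76 FPKM in sh-circRIMS1 libraries, against 12.2, 12.0 and 12.6 FPKM in NC libraries. It fell by 0.44 (SE 0.05, limma adjusted p = 0.00149) with narrow spread in both groups. KIFC2, another minus-end motor, had 12.4, 8.28 and 12.3 FPKM in sh-circRIMS1 libraries, against 10.6, 10.5 and 9.12 FPKM in NC libraries, and these overlapped (change 0.10, 95% interval −0.27 to 0.48, limma adjusted p = 0.626).

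**Figure D3:**
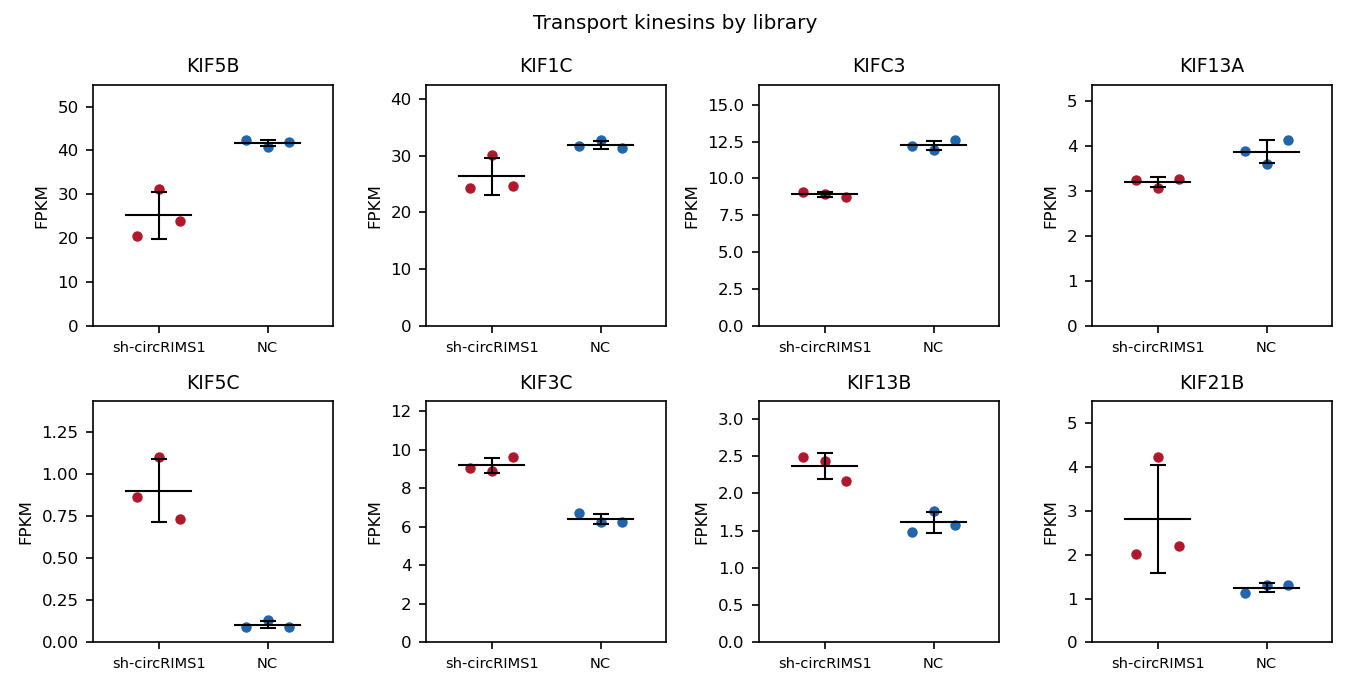
FPKM of 8 transport kinesins in each library (points), with group means and SD (lines and error bars), sh-circRIMS1 left of NC in each panel. The upper row shows kinesins that fell, and the lower row shows KIF5C, below the filter, with KIF3C, KIF13B and KIF21B, which rose.

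In 10 pairs of related genes, chosen after their values had been seen, the log2 ratio of FPKM + 0.5 of the first to the second gene was taken within each library. Since the pairs were picked on these values, the ratios are a description with no test. KIF5B over KIF5C had a ratio of 4.19 in sh-circRIMS1 libraries and 6.12 in NC libraries, a difference of −1.94. KIF21A over KIF21B differed by −0.98, KIF13A over KIF13B by −0.68, KIF3B over KIF3C by −0.61 and KIF3A over KIF3C by −0.40. KIFC2 over KIFC3 differed by 0.54, KIF2A over KIF2C by 0.22 and KIF1B over KIF1C by 0.19. In these 8 pairs the values of the groups did not overlap. KIF20A over KIF20B (difference 0.20) and KIF18A over KIF18B (difference −0.18) overlapped.

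**Figure D4:**
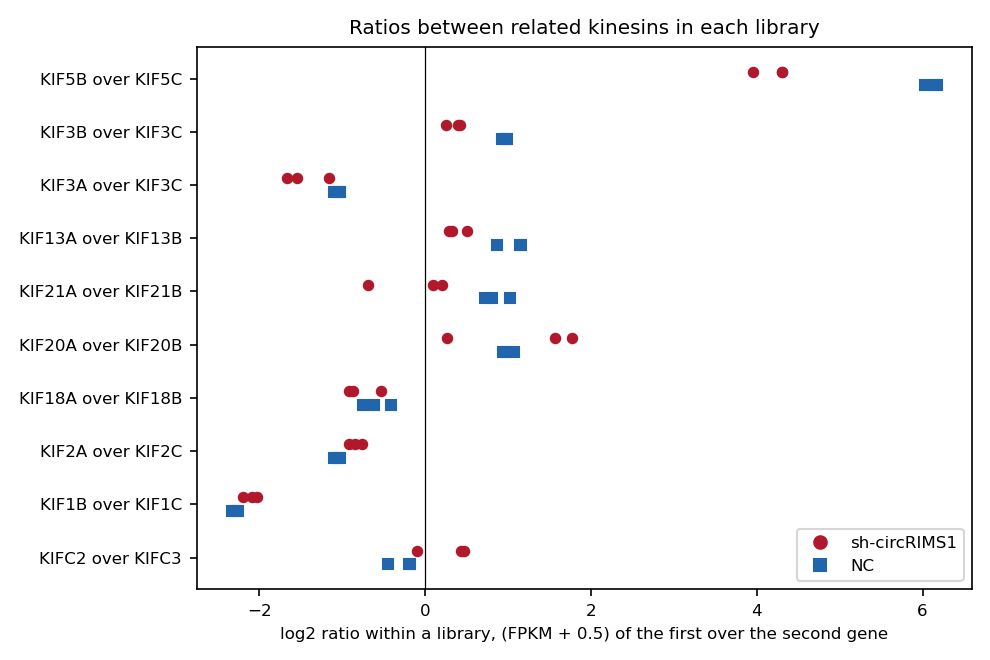
Log2 ratio of FPKM + 0.5 of the 2 genes in each of 10 related pairs, by library, sh-circRIMS1 in red and NC in blue. The ratio of KIF5B to KIF5C sits near 4.19 in sh-circRIMS1 libraries and near 6.12 in NC libraries, and the pairs KIF20A with KIF20B and KIF18A with KIF18B overlap.

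The 10 kinesins of cilia and other roles were mostly scarce, and neither of the 2 above the filter passed the test. KIF7, a regulator of Hedgehog signalling at the ciliary tip, had 5.75, 4.51 and 5.29 FPKM in sh-circRIMS1 libraries, against 4.90, 4.96 and 4.93 FPKM in NC libraries, which overlapped (change 0.06, limma adjusted p = 0.621). KIF24, which restrains cilium formation, did not pass either (change −0.03, limma adjusted p = 0.808). KIF1BP, the binding protein, had 24.2, 20.3 and 26.4 FPKM in sh-circRIMS1 libraries, against 22.9, 23.9 and 22.9 FPKM in NC libraries, and also overlapped (change 0.02, limma adjusted p = 0.913). KIF27, a ciliary relative of KIF7 below the filter, had 0.406, 0.662 and 0.506 FPKM in sh-circRIMS1 libraries, against 0.314, 0.251 and 0.298 FPKM in NC libraries, without overlap (exact two-sided permutation p = 0.1). KIF9, KIF12 and KIF26B overlapped between groups at a low level. KIF25 and KIF26A were above 0 in 1 knockdown library each, and KIF19 was listed at 0 in every library.

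In all, 14 kinesin rows lay below the filter, and 2 of them were listed at 0 in every library. Among those above 0 in some library, the groups did not overlap in 5, with KIF5C, KIF27, KIF6 and KIF1A higher and KIF4B lower in sh-circRIMS1 libraries. KIF6 and KIF1A did so at values near 0, at most 0.0283 FPKM for KIF6 and 0.0145 FPKM for KIF1A. Among the 5809 genes below the filter with a value above 0 in some library, 29.0% were higher and 2.96% lower without overlap. Without sh-circRIMS1 replicate 2 the kinesin count was 6, with KIF17, also near 0, added as lower. The share over all such genes was not taken for that case, and 2 libraries against 3 separate more readily.

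Genes that work beside the mitotic kinesins were mostly lower. Of 10 tested central spindle and cytokinesis partners, 8 fell and 0 rose, with a median of −0.49, where 12.7% of all tested genes fell and 25.0% rose. Within this list PRC1, which crosslinks the antiparallel microtubules on which KIF4A and KIF20A act, averaged 36.4 ± 2.63 FPKM in sh-circRIMS1 libraries and 54.9 ± 0.261 FPKM in NC libraries (SD, n = 3 each; change −0.59, limma adjusted p = 0.00093). PLK1, the mitotic kinase that docks on KIF20A, fell by 0.62 (limma adjusted p = 0.0005). BIRC5, or survivin, and CDCA8, or borealin, both of the chromosomal passenger complex, fell by 0.83 and 0.45 (limma adjusted p = 0.000816 and 0.00217). AURKB, the kinase of that complex (change −0.25), and CIT, the citron kinase that works with KIF14 (change −0.05), did not pass. Without NC replicate 1 or 3, 5 of the 10 fell, where 685 and 693 of all tested genes fell, against 1322 with all 6 libraries. Without sh-circRIMS1 replicate 2, 8 fell and 0 rose, where 23.9% of all tested genes fell and 36.8% rose.

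Of 15 spindle and kinetochore partners, 11 fell and 0 rose, with a median of −0.48, and 7 fell when any 1 of the NC libraries was left out. In those cases 685 to 693 of all tested genes fell, against 1322 with all 6 libraries. Without sh-circRIMS1 replicate 2, 14 of the 15 fell and 0 rose. The shares over all tested genes were 12.7% lower and 25.0% higher, and 23.9% and 36.8% without that library. NUF2 and NDC80, which hold kinetochores to microtubules, fell by 0.53 and 0.47 (limma adjusted p = 0.000919 and 0.000935). AURKA, a spindle pole kinase, and BUB1B, a checkpoint protein, fell by 0.57 and 0.48 (limma adjusted p = 0.0011 and 0.00135). CENPE, the kinetochore kinesin whose symbol lacks the KIF prefix and which is named here after its values were seen, had 0.821, 2.78 and 1.09 FPKM in sh-circRIMS1 libraries, against 3.89, 3.50 and 3.76 FPKM in NC libraries. Its groups did not overlap (change −1.15, SE 0.32, limma adjusted p = 0.0290), with replicate 2 the highest of its group.

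Of 10 tested tubulins, the subunits of the tracks on which kinesins run, 7 fell and 0 rose, with a median of −0.42, and the counts were again 7 and 0 without sh-circRIMS1 replicate 2. The shares over all tested genes were 12.7% lower and 25.0% higher, and 23.9% and 36.8% without that library. TUBA1C, TUBB6, TUBB and TUBB4B fell by 0.44, 0.53, 0.40 and 0.60 (limma adjusted p = 0.00169, 0.00212, 0.00302 and 0.00487). Tubulin genes are near-identical to one another and to pseudogenes, so how shared reads were counted could move their values. Of 21 tested members of cytoplasmic dynein and dynactin, the opposing minus-end motor and its activator, 2 fell and 2 rose, with a median of −0.04. Both counts were below the shares over all tested genes (12.7% and 25.0%). The dynein and dynactin counts changed when single libraries were left out, as did the counts over all tested genes. Over all of these, 685, 690 and 693 fell and 1635, 1650 and 1630 rose without NC replicates 1, 2 and 3. With all 6 libraries, 1322 fell and 2598 rose. Without sh-circRIMS1 replicate 2, 8 fell and 4 rose, where 23.9% of all tested genes fell and 36.8% rose. Without NC replicate 2 or 3, 0 of these members fell and 0 rose. Without NC replicate 1, 1 fell and 0 rose, and 1 and 0 fell without sh-circRIMS1 replicates 1 and 3. DCTN5 and DCTN3 fell by 0.26 and 0.27 (limma adjusted p = 0.0212 and 0.0311), and DYNLT1 and ACTR1B rose by 0.28 and 0.36 (limma adjusted p = 0.0185 and 0.0208).

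Of 12 known regulators of transcription in G2 and mitosis, 4 fell and 1 rose, with a median of −0.21, where 12.7% of all tested genes fell and 25.0% rose. Without NC replicate 1, 2 regulators fell, and without NC replicate 2 or 3, 1 fell, with 0 rising in each case. In those cases 685, 690 and 693 of all tested genes fell and 1635, 1650 and 1630 rose, against 1322 and 2598 with all 6 libraries. Without sh-circRIMS1 replicate 2, 5 fell and 1 rose, with a median of −0.06, where 23.9% of all tested genes fell and 36.8% rose. FOXM1, an activator of these genes, averaged 29.6 ± 3.75 FPKM in sh-circRIMS1 libraries and 44.6 ± 0.885 FPKM in NC libraries (SD, n = 3 each; change −0.59, limma adjusted p = 0.00401). LIN54, the DREAM subunit that contacts the CHR, and RBL1, the p107 pocket protein, fell by 0.37 and 0.36 (limma adjusted p = 0.0114 and 0.0239). MYBL2, or B-MYB, fell by 0.24 (limma adjusted p = 0.0298), and RBL2, the p130 pocket protein of the repressive DREAM complex, rose by 0.38 (limma adjusted p = 0.0167). Beside these lists, 3 of 4 tested epithelial markers fell (KRT7, KRT18 and PPARG), and all 4 without sh-circRIMS1 replicate 2. The 12 markers summed to 704 to 955 FPKM in sh-circRIMS1 libraries, against 1240 to 1285 FPKM in NC libraries. This sum is nearly all KRT7, KRT8 and KRT18. Below the filter, EPCAM (mean 0.732 FPKM against 0.366 in NC), KRT19 and GATA3 were higher in sh-circRIMS1 libraries without overlap, while CDH1, UPK1A and UPK2 overlapped. Of all genes below the filter and above 0 in a library, 29.0% were higher and 2.96% lower without overlap. The 6 leukocyte markers summed to 16.9 to 23.7 FPKM in sh-circRIMS1 libraries, against 4.97 to 6.08 FPKM in NC libraries, and this sum is mostly CD68. CD68 was the 1 tested member and rose (2 rose of 2 tested without sh-circRIMS1 replicate 2). The 6 endothelial and fibroblast markers summed to 14.1 to 17.3 FPKM in sh-circRIMS1 libraries, against 15.2 to 16.6 FPKM in NC libraries, and this sum is mostly CDH5. CDH5 was the 1 tested member, did not pass, and fell without sh-circRIMS1 replicate 2. Below the filter, COL1A1 (mean 0.723 FPKM against 0.132 in NC), VWF (0.211 against 0.0717) and COL1A2 were higher in sh-circRIMS1 libraries without overlap. PECAM1 overlapped, and DCN was listed at 0. The part of these other changes in the kinesin results was not tested.

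Over all kinesin rows with a promoter, CHR matches lay mainly in mitotic kinesins. TTTGAA on either strand lay in 10 of 15 mitotic kinesin promoters (66.7%), 1 of 12 transport kinesin promoters and 0 of 7 promoters of the remaining kinesins. CCAAT on either strand lay in 11 of 15 mitotic promoters (73.3%), 3 of 12 transport promoters and 3 of 7 of the rest. Of all 27305 promoters in the RefSeq table, 15.4% held TTTGAA, 35.7% held CCAAT and 6.08% held both, while 9 of 15 mitotic kinesin promoters (60.0%) held both. Among the 8617 tested genes with a promoter, 9.30% held TTTGAA, 37.3% held CCAAT and 4.12% held both. TTTGAA lay in 14.2% of those that fell, 7.92% of those that rose and 8.85% of the rest.

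Within the mitotic class, 9 of the 10 kinesins that fell held TTTGAA and 8 held both motifs. KIF15 held TTTGAA alone, and KIF2C, the smallest fall, held neither. None of the 3 tested mitotic kinesins that missed the threshold (KIF20A, KIF22 and KIF2A) held TTTGAA, although 2 of them held CCAAT. This split does not follow the size of the change, which was −0.66 in KIF20A and −0.64 in KIF11, and it rests on sh-circRIMS1 replicate 2. Without that library KIF20A and KIF22 fell too (limma adjusted p = 3.07e-05 and 0.00394), so that 9 of 12 mitotic kinesins that fell held TTTGAA and KIF2A alone was not called. Counted from the annotated start, TTTGAA began at −34 in KIF4A, −28 in KIF11, −55 in KIF23, −10 in KIF18A, +2 in KIF14 and +5 in KIFC1. The distance from the first base of the CCAAT box upstream was 25 bases in KIF11, 24 in KIF4A and 23 in KIF14, 35 in KIF18A and 34 in KIF18B, but 9 in KIF23 and 50 in KIFC1. In KIF5B, by contrast, TTTGAA lay far upstream at −140 with CCAAT on its downstream side. Among partners, TTTGAA lay in 7 of 8 central spindle and 9 of 12 spindle and kinetochore promoters, but in 0 of 20 dynein and dynactin promoters, 0 of 8 adaptor promoters and 0 of 4 light chain and accessory promoters. It lay in 2 of 12 tubulin promoters (16.7%) and 2 of 11 promoters of the G2 and mitosis regulators (18.2%). The share was 15.4% in all promoters and 9.30% in those of tested genes. Of the 10 tested tubulins, 7 fell. A match describes the letters in this window and is not evidence of binding.

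**Figure D5:**
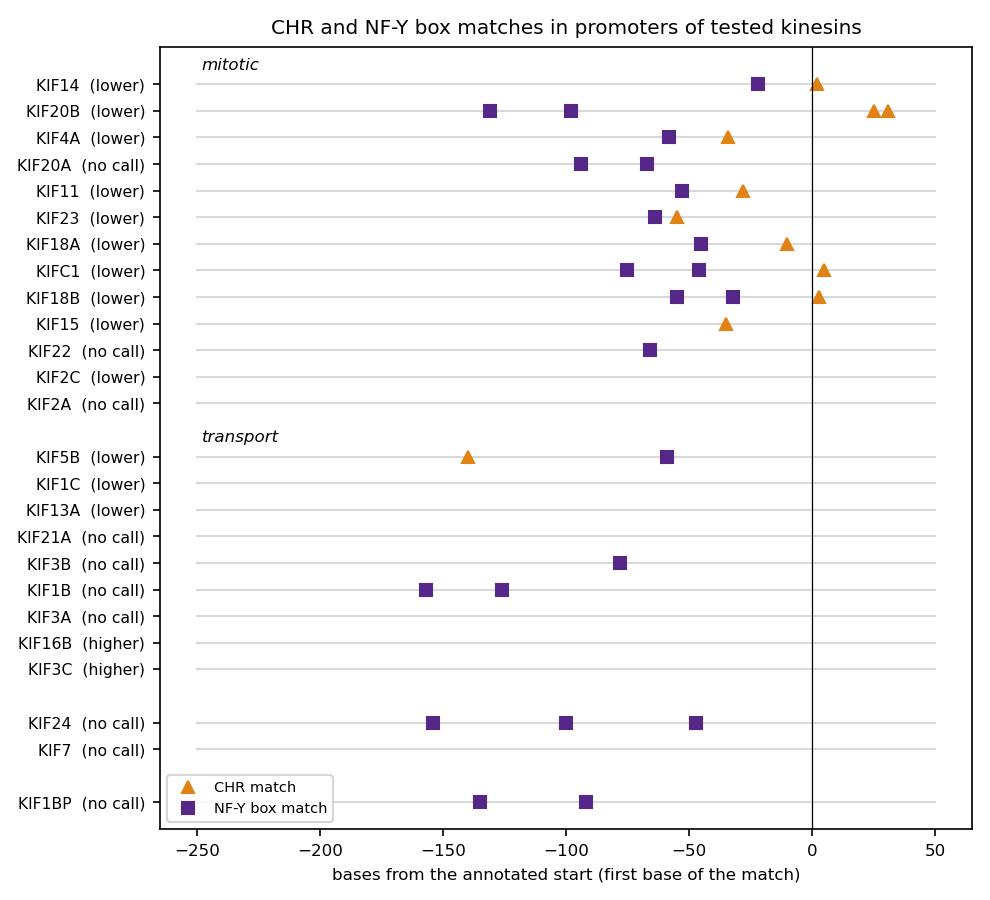
Position of TTTGAA (CHR) and CCAAT (NF-Y box) matches on either strand in promoters of tested kinesins, as bases from the annotated start (horizontal axis), genes grouped by class. Most mitotic kinesins carry a CHR match close to the start with an NF-Y box upstream of it, and among transport kinesins KIF5B alone has a CHR match, at −140.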

How the data were processed

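RNA sequencing values were analysed for 6 T24 libraries, 3 sh-circRIMS1 and 3 NC. Per the labels' protocols, total RNA was depleted of ribosomal RNA, treated with RNase R, which digests linear RNA, and made into strand-specific libraries. Messenger RNAs were nevertheless abundant, so it is uncertain how that digestion affected these values. FPKM values were computed and deposited by the authors in a single table. The tools that the submitters' processing notes list are HISAT2, StringTie, Cufflinks, Trimmomatic, HTSeq and DESeq, without versions or roles. A genome build was not given in the sources used here.

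Of 20030 gene rows, 10408 had a mean of at least 1 FPKM and were tested on log2(FPKM + 0.5) with limma (version 3.58.1, R 4.3.3). The two-sided test used an intensity trend and no covariate, and p-values were adjusted by Benjamini-Hochberg with a threshold of 0.05. This scale understates changes of low genes. Rows below the filter had an exact two-sided permutation test of FPKM. In simulated data over 10408 genes for this comparison, 94% of 100 genes changed by 1 and 56% of 100 changed by 0.5 on the log2 scale were recovered. The changed genes were drawn only from those of higher level, and far fewer were changed than were called in the real data. These rates therefore do not describe kinesins of low level, and may differ from recovery in the real comparison. Same-numbered libraries of the groups did not deviate together, so no pairing was used.

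The kinesin rows, classes and partner lists were chosen with earlier results of these data known. Values in every library are given for every called kinesin, for KIF11, KIF20A, KIF23 and KIF2C and for the highest tested member of each class, and up to 4 called genes are named per partner list. AURKB, CIT, CENPE and MYBL2 were named after their values were seen. Alternatives covered the pseudocount, filter, scaling, weights, blocking and each library left out. Kinesin protein sequences were not used here.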

Additional observations from a re-analysis of the deposited data

How the results depend on the processing

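Of the 18 kinesin calls, 11 held under every alternative that tested them: KIF11, KIF14, KIF18A, KIF18B, KIF20B, KIF23, KIF4A, KIFC1, KIF5B, KIFC3 and KIF3C. The 4 kinesins called higher, all transport kinesins, became 1 with the filter at 5 FPKM and 1 under quantile normalization, where KIF16B reversed to −0.013. With 1 library left out, 1 to 6 kinesins were called higher (1 to 5 of transport) and 10 to 16 lower, with 8 to 12 mitotic and 2 to 4 transport kinesins lower. The 4 transport kinesins called lower became 2 without the filter, 2 on TPM and 2 under the replicate block, which kept 14 of the 18 calls. The replicate numbers are only shared numbers: same-numbered deviations correlated at −0.0258, −0.00335 and −0.0402. HMMR, a spindle partner not called, reversed to −0.19 without sh-circRIMS1 replicate 2 and lay between −0.19 and 0.16 with 1 library left out.

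Genes called lower numbered 2429 under median-of-ratios scaling, 2085 under quantile normalization, 2424 with array weights and 685 to 2474 with 1 library left out. Genes called higher numbered 1469 with the 5 FPKM filter, 1588 under quantile normalization, 3983 with array weights and 1630 to 3803 with 1 library left out. The mitotic median was −0.69 under median-of-ratios scaling, −0.43 with array weights and −0.64 to −0.48 with 1 library left out. The transport median was −0.0076 without the filter, −0.20 under median-of-ratios scaling, −0.20 under quantile normalization, −0.027 with array weights and −0.12 to −0.04 with 1 library left out. The all-gene median was 0.0065 with the 5 FPKM filter, −0.056 under median-of-ratios scaling, −0.053 under quantile normalization, 0.093 on TPM and 0.05 to 0.07 with 1 library left out. Relative to it, the mitotic median was −0.64 in the reported fit and −0.64, −0.61 and −0.69 under median-of-ratios scaling, quantile normalization and TPM. The cause of these differences was not tested. With depth unknown, the precision of kinesins near 0 FPKM cannot be given.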

Other observations

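The promoter windows of KIF4A and its copy KIF4B share 1 identical run of 50 bases, which ends at the edge of the KIF4B window and may continue beyond it. It starts at −37 in the KIF4A window and at +1 in the KIF4B window, so the TTTGAA of KIF4A at −34 corresponds to the TTTGAA of KIF4B at +4, with CCAAT beginning 24 bases upstream of it in both. With the windows aligned on this run and no gaps allowed, 163 of 263 bases (62.0%) were identical. KIF4B stood at 0.166 ± 0.0393 FPKM in sh-circRIMS1 libraries and 0.252 ± 0.0151 FPKM in NC libraries (SD, n = 3 each).

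KIF20B is the 1 kinesin in the promoter table with 2 TTTGAA matches, at +25 and +31, both after the annotated start, and its upstream CCAAT lies 122 bases away.

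Classes taken from the Gene Ontology terms of the deposited table, an alternative chosen after the data were seen, shared 14 members with the mitotic class and 12 with the transport class used above. By those terms, 10 of 14 tested mitotic members fell and 0 rose, with a median of −0.48, and 3 of 9 tested transport members fell and 4 rose. The 10 are not the same genes as above, since these terms leave out KIF14 and place KIF13A, which fell, and KIF3B in the mitotic class. KIF1BP, not a motor, is among the 9. Of all tested genes, 12.7% fell and 25.0% rose.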
